A study of Mus musculus with 9 samples.

Results

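Genes that mark somatic and visceral motor neurons were followed across RNA-seq libraries of sorted cells of mouse organoids that resemble the neural tube. The 9 genes are Isl1, Isl2, Lhx3, Lhx4, Mnx1, Phox2a, Tbx20, Chat and Slc18a3, found by symbol among the 54532 genes of the deposited count table. Each of the 9 had 1 row. The organoids were grown from single R1 mouse embryonic stem cells in Matrigel, in N2B27 medium, and all cells carried FoxA2-Venus, a fluorescent reporter of Foxa2. The medium was changed at Day 2, and cells were sorted into high and low fluorescence 66 h later with filters for GFP. The SAG GFP+ group holds high-fluorescence cells grown with SAG, a small molecule that switches on hedgehog signalling through Smoothened. The RA GFP+ group holds high-fluorescence cells and the RA GFP- group low-fluorescence cells, both from medium with all-trans retinoic acid (RA). Each group has 3 biological replicates, and all 9 libraries come from the same cell line. The RA dose is 250 nM in the series text and 250 µM in the treatment protocol, the SAG dose is not given in the sources used here, and low-fluorescence cells from SAG medium were not analysed here.

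Motor neurons are the neurons that send axons out of the brainstem and spinal cord. Somatic motor neurons drive skeletal muscle of the trunk, limbs, tongue and eyes, while visceral and branchial motor neurons, which in the hindbrain arise next to the floor plate from progenitors with Nkx2-2, serve autonomic ganglia and the muscles of the face, jaw and throat. Isl1 is used by both kinds. Lhx3, Lhx4 and Mnx1 act in the somatic programme of the spinal cord, and Phox2a and Tbx20 in motor neurons of the hindbrain. Chat and Slc18a3 equip both kinds to make and package acetylcholine.

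In SAG GFP+ cells, 5 of these genes were higher than in both RA groups: the hindbrain motor neuron factors Phox2a and Tbx20, the shared factor Isl1, and the acetylcholine genes Chat and Slc18a3. Of all tested genes, 9.78% were higher than in RA GFP+ cells and 12% higher than in RA GFP- cells. Chat passed the filter on low counts only through the SAG GFP+ group. Its call against RA GFP- cells was lost in some fits that left out 1 library. Tbx20 differed most among the transcription factors, at 32.8 ± 18.7 CPM in SAG GFP+ cells, 0.594 ± 0.0407 CPM in RA GFP+ cells and 0.465 ± 0.394 CPM in RA GFP- cells (mean ± SD, n = 3 each). Mnx1, of the somatic programme, averaged 2.19 ± 0.242 CPM in SAG GFP+ cells, 9.66 ± 1.86 CPM in RA GFP+ cells and 1.36 ± 0.238 CPM in RA GFP- cells, and so stood highest in RA GFP+ cells. Isl2 and Lhx3 stood highest in RA GFP- cells. CPM are read counts made relative to library size, with TMM scaling.

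Isl1 (ENSMUSG00000042258) lies on chromosome 13 from 116298281 to 116309689, minus strand, in GRCm38. Isl2 (ENSMUSG00000032318) lies on chromosome 9 from 55538672 to 55546180, plus strand, and Tbx20 (ENSMUSG00000031965) on the same chromosome from 24718138 to 24774303, minus strand. Lhx3 (ENSMUSG00000026934) is on chromosome 2 from 26200212 to 26208289, minus strand, and Lhx4 (ENSMUSG00000026468) on chromosome 1 from 155698031 to 155751684, minus strand. Mnx1 (ENSMUSG00000001566) is on chromosome 5 from 29473034 to 29478470, minus strand, and Phox2a (ENSMUSG00000007946) on chromosome 7 from 101818313 to 101822726, plus strand. Chat (ENSMUSG00000021919) runs on chromosome 14 from 32408203 to 32465989, minus strand. Slc18a3 (ENSMUSG00000100241) is a single-exon gene inside the body of Chat, from 32462438 to 32464850 on the same strand, and shares no exon base with it. All 9 are annotated as protein-coding.

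The 250 bases before the annotated start are shown for the 3 transcription factor genes that were higher together in SAG GFP+ cells, Isl1, Phox2a and Tbx20, and for Mnx1, which stood highest in RA GFP+ cells instead. They are from RefSeq, build GRCm38.p6, 5′ to 3′ on the strand of the gene, with matches to the motifs searched in capitals. RefSeq promoter entries matched all 9 genes. The windows are chr13:116309689-116309938 for Isl1, chr7:101818063-101818312 for Phox2a, chr9:24774304-24774553 for Tbx20 and chr5:29478471-29478720 for Mnx1.
Isl1: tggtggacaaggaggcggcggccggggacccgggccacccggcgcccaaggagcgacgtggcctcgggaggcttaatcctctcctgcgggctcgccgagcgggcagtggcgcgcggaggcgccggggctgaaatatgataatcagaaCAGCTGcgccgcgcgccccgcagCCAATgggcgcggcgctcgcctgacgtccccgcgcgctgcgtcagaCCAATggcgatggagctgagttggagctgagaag
Phox2a: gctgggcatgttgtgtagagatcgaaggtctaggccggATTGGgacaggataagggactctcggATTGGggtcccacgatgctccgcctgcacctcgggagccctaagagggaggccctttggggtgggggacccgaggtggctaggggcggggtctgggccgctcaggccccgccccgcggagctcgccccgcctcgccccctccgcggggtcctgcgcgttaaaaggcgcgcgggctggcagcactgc
Tbx20: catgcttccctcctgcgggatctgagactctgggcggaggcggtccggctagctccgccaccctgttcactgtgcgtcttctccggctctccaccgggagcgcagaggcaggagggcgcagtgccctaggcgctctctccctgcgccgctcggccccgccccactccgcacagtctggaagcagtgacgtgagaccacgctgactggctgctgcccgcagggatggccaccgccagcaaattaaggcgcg
Mnx1: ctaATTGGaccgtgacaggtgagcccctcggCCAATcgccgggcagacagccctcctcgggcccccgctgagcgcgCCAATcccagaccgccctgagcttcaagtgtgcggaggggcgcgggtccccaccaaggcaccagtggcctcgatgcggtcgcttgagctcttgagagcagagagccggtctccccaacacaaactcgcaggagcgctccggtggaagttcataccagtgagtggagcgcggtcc
Both strands were searched for 7 motifs. These were the homeodomain motif TAATTA, the forkhead motif TGTTTAC, the Gli motif GACCACCCA, the nuclear receptor half-site AGGTCA, the E-box CAGCTG, the CCAAT box, and the core promoter element TATAAA. The Isl1 window holds 1 CAGCTG and 2 CCAAT, the Phox2a window 2 CCAAT and the Mnx1 window 3 CCAAT, and no 2 matches overlap. The Tbx20 window holds none of the 7. Of 32841 mouse promoter windows of the same length, 13% hold CAGCTG and 33.9% hold CCAAT. The shares are 4.84% for TAATTA, 3.17% for TGTTTAC, 0.225% for GACCACCCA, 14% for AGGTCA and 12.4% for TATAAA. All 4 windows are rich in G and C, at 71.2% for Isl1, 70.4% for Phox2a, 68.8% for Tbx20 and 66.4% for Mnx1.

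Library totals ran from 25281871 to 29763765 counts. Foxa2, the gene behind the sort, averaged 247.8 CPM in SAG GFP+ cells and 158 CPM in RA GFP+ cells, against 2.11 CPM in RA GFP- cells, so the libraries follow their sort labels. SAG GFP+ replicate 1 stood apart from replicates 2 and 3 for these genes. Both of the other replicates were at least 2-fold above replicate 1 for 6 of the 9 genes, against 7.07% of the 16772 tested genes, and at least 2-fold below it for 0 of the 9, against 5.51%. Summed CPM of 6 pluripotency genes were 224.7 in SAG GFP+ replicate 1, against 60.5 and 71.2 in replicates 2 and 3. Summed CPM of 7 notochord and node genes were 194.2 in replicate 1, against 54.96 and 75.09 in replicates 2 and 3. Few genes make up most of these sums in replicate 1, with Pou5f1 at 170.8 CPM in the first and T at 110.3 CPM in the second. Zfp42, Esrrb and Klf4, also of the pluripotency list, stayed at or below 4.318 CPM in all SAG GFP+ libraries. Tests of the 9 genes in SAG GFP+ cells are therefore given with and without replicate 1, as are the counts of calls in gene lists where they differ. Replicate 1 was picked in part for its low values of these same genes. Larger differences and smaller adjusted p without it follow from that choice and are no added support. In bulk libraries, fewer cells of a type and less RNA per cell cannot be told apart.

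**Figure D1:**
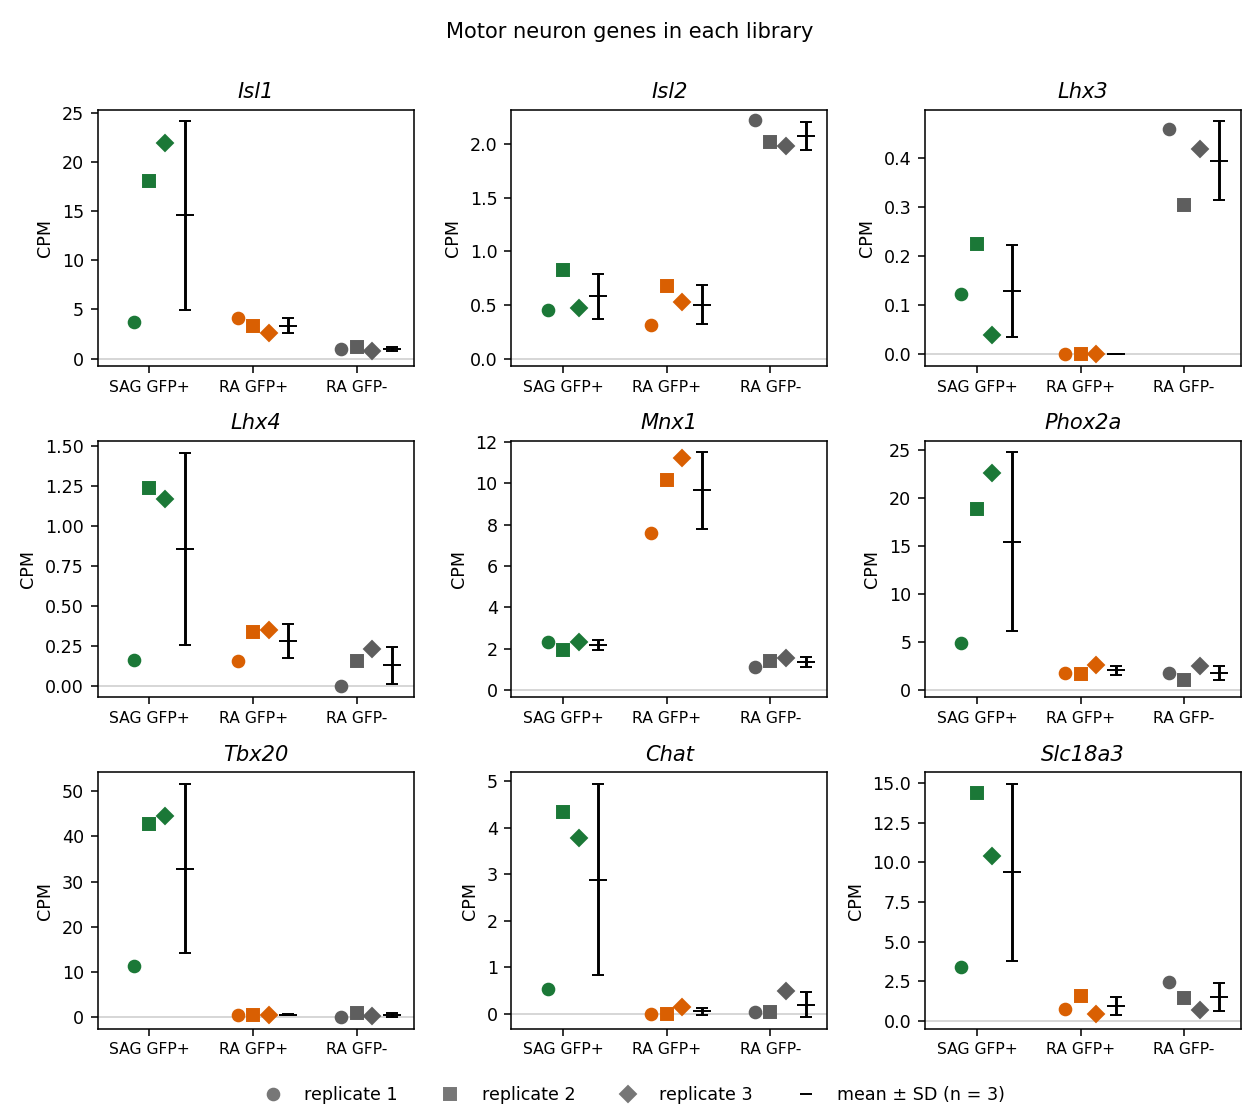
CPM (vertical axis, linear, own scale per gene) of the 9 motor neuron genes in each library of the SAG GFP+, RA GFP+ and RA GFP- groups; symbols are replicates, and bars the mean ± SD (n = 3). For Isl1, Lhx4, Phox2a, Tbx20, Chat and Slc18a3 replicates 2 and 3 of the SAG GFP+ group lie above all other libraries, while Mnx1 is highest in RA GFP+ and Isl2 and Lhx3 in RA GFP-.

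The LIM-homeodomain factors set motor neuron identity in pairs and complexes. Isl1, which is needed for motor neurons to form in the mouse, had 3.71, 18.1 and 21.9 CPM in the SAG GFP+ libraries, in the order of replicates 1 to 3 that is kept throughout. RA GFP+ libraries had 4.12, 3.29 and 2.58 CPM of Isl1, and RA GFP- libraries 0.989, 1.14 and 0.799 CPM. Replicates 2 and 3 of the SAG GFP+ group lay above all other libraries, while replicate 1 lay among the RA GFP+ libraries, and all RA GFP+ libraries lay above all RA GFP- libraries. Isl1 was higher in SAG GFP+ than in RA GFP+ cells by a log2 fold change of 2.13 (SE 0.51, edgeR adjusted p = 0.0102), and by 2.61 without replicate 1 (adjusted p = 6.99e-05). Against RA GFP- cells the difference was 3.89 (SE 0.56, adjusted p = 0.000418), and 4.37 without replicate 1 (adjusted p = 3.18e-06). Isl1 was also higher in RA GFP+ than in RA GFP- cells, by 1.76 (SE 0.54, edgeR adjusted p = 0.0452). In this fit, which has no replicate block, the call sits near the threshold. It was lost with library totals as the only scaling (adjusted p = 0.0502). It was also lost when any 1 RA library or SAG GFP+ replicate 2 was left out (adjusted p = 0.0524 to 0.121). The call held in a fit of the RA libraries alone with the replicate number as a block (adjusted p = 0.00181). Without SAG GFP+ replicate 1, picked in part for low values of these genes, it held as well (adjusted p = 0.00104).

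Isl2, a close relative of Isl1 that acts in the same cells at a later stage, had a different order. It stood at 0.448, 0.824 and 0.467 CPM in SAG GFP+ libraries, 0.314, 0.672 and 0.523 CPM in RA GFP+ libraries, and 2.22, 2.02 and 1.98 CPM in RA GFP- libraries. All RA GFP- libraries lay above all GFP+ libraries, and the GFP+ groups overlapped. Isl2 was lower in RA GFP+ than in RA GFP- cells by a log2 fold change of -2.03 (SE 0.43, adjusted p = 0.00684). In SAG GFP+ against RA GFP- cells it was lower as well, at -1.83 (SE 0.42, adjusted p = 0.00754) and -1.65 without replicate 1 (adjusted p = 0.0213). Between SAG GFP+ and RA GFP+ cells its difference of 0.20 (SE 0.44, adjusted p = 0.782) did not pass the test, and it was 0.37 without replicate 1 (adjusted p = 0.596).

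Lhx3 and Lhx4, which partner Isl1 in somatic motor neurons and also act in V2 interneurons, were too low for the filter on counts. Lhx3 had 3, 6 and 1 counts in SAG GFP+ libraries, 0 counts in each RA GFP+ library, and 13, 8 and 11 counts in RA GFP- libraries. With 3 counts over the RA GFP+ group as the limit that a count of 0 allows, the RA GFP- mean of Lhx3 was 11.03 times that limit. The SAG GFP+ mean of Lhx3, from 10 counts in all, was 3.6 times the same limit. Lhx4 had 4, 33 and 30 counts in SAG GFP+ libraries, 4, 10 and 10 counts in RA GFP+ libraries, and 0, 4 and 6 counts in RA GFP- libraries. Its pattern followed Isl1, with SAG GFP+ replicates 2 and 3 above all other libraries and replicate 1 among the RA libraries. In a fit with no filter on low counts, which called 15.8% of genes in SAG GFP+ against RA GFP+ cells, 18.9% in SAG GFP+ against RA GFP- cells and 11.9% in RA GFP+ against RA GFP- cells, Lhx4 was higher in SAG GFP+ than in RA GFP- cells (log2 fold change 2.75, adjusted p = 0.00654) and missed the threshold against RA GFP+ cells (1.59, adjusted p = 0.145). The same fit called Lhx3 lower in RA GFP+ than in RA GFP- cells (adjusted p = 0.00138) and higher in SAG GFP+ than in RA GFP+ cells (adjusted p = 0.0313). Without SAG GFP+ replicate 1 both genes passed the filter. Lhx4 was then higher in SAG GFP+ than in RA GFP- cells (adjusted p = 0.0114) and missed the threshold against RA GFP+ cells (adjusted p = 0.0575), and Lhx3 was called as in the fit with no filter (adjusted p = 0.00898 and 0.0454). Here Lhx4 passed the filter through SAG GFP+ replicates 2 and 3 and Lhx3 through the RA GFP- group, so these calls are in part set by the filter. The limit from a count of 0 covers counting error of the RA GFP+ group only, and not that of the group set against it. The fitted values of both genes rest on few reads.

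Mnx1, also known as Hb9, is the homeodomain factor that keeps somatic motor neurons from taking up interneuron genes. It stood at 2.32, 1.91 and 2.34 CPM in SAG GFP+ libraries, 7.60, 10.2 and 11.2 CPM in RA GFP+ libraries, and 1.09, 1.41 and 1.56 CPM in RA GFP- libraries. The 3 groups did not overlap, with RA GFP+ at the top and RA GFP- at the bottom. Mnx1 was higher in RA GFP+ than in RA GFP- cells (log2 fold change 2.83, SE 0.28, adjusted p = 7.22e-05). In SAG GFP+ cells it was lower than in RA GFP+ cells by -2.14 (SE 0.27, adjusted p = 0.000212), and by -2.16 without replicate 1 (adjusted p = 0.000567). Its difference between SAG GFP+ and RA GFP- cells, 0.69 (SE 0.28, adjusted p = 0.0861), missed the threshold, and was 0.67 without replicate 1 (adjusted p = 0.111). Mnx1 and Isl1 are also used in notochord and in pancreatic endoderm. Summed CPM of 11 endoderm and pancreas genes ran from 25.62 to 81.87 in SAG GFP+ libraries, from 119.7 to 217.4 in RA GFP+ libraries and from 52.01 to 87.09 in RA GFP- libraries. Of these 11 genes, 7 were tested and 4 were higher in RA GFP+ than in RA GFP- cells, among them Sox17 at 34.65, 49.0 and 55.28 CPM in RA GFP+ libraries against 1.695, 0.991 and 1.294 CPM in RA GFP- libraries. Of all tested genes, 8.49% were higher in that comparison. Pdx1, the defining pancreatic gene of the list, was at or below 0.208 CPM on average in every group. Summed CPM of the 7 notochord and node genes ran from 54.96 to 194.2 in SAG GFP+ libraries, from 64.38 to 85.88 in RA GFP+ libraries and from 32.73 to 33.69 in RA GFP- libraries. Of these 7 genes, 6 were tested, and Chrd and Nog, which encode secreted BMP inhibitors, were higher in RA GFP+ than in RA GFP- cells and lower in SAG GFP+ than in RA GFP+ cells, the directions of Mnx1. Chrd averaged 17.51 CPM in RA GFP+ cells and 5.17 CPM in RA GFP- cells (adjusted p = 0.00543), and Nog 6.097 CPM in RA GFP+ cells and 0.9233 CPM in RA GFP- cells (adjusted p = 0.00229). T, of the same list, went the other way and was called higher in SAG GFP+ cells (42.69 CPM) than in RA GFP+ cells (3.98 CPM). That call was lost without SAG GFP+ replicate 1 (log2 fold change 1.18, adjusted p = 0.177). Foxj1, Cdx2 and Sox9 were called in neither comparison. Noto, a defining notochord gene, was too low to test and was at 0 in both RA groups. In SAG GFP+ libraries it averaged 0.864 CPM but ran from 0 to 2.281 CPM, so that mean rests mostly on 1 library. The part of these cells in the Mnx1 and Isl1 values was not tested.

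Phox2a, a homeodomain factor of hindbrain motor and noradrenergic neurons, stood at 4.93, 18.8 and 22.5 CPM in SAG GFP+ libraries. It stood at 1.80, 1.68 and 2.58 CPM in RA GFP+ libraries and at 1.77, 1.03 and 2.47 CPM in RA GFP- libraries. All SAG GFP+ libraries lay above all RA libraries, with replicate 1 the lowest of them, and the RA groups overlapped. Phox2a was higher in SAG GFP+ than in RA GFP+ cells by a log2 fold change of 2.93 (SE 0.52, adjusted p = 0.0017), and by 3.37 without replicate 1 (adjusted p = 6.7e-05). Against RA GFP- cells the difference was 3.13 (SE 0.52, adjusted p = 0.00103), and 3.58 without replicate 1 (adjusted p = 3.8e-05). In RA GFP+ against RA GFP- cells its difference of 0.20 (SE 0.51, adjusted p = 0.836) did not pass the test. Phox2a shares 95 exon bases, 4.67% of its own, with Inppl1 on the opposite strand, and the strand setting of the counting is not given in the sources used here. Inppl1 averaged 195.8 CPM in SAG GFP+ cells, 238.8 CPM in RA GFP+ cells and 176.4 CPM in RA GFP- cells. The part of Inppl1 reads in the Phox2a counts was not tested.

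Tbx20, a T-box factor of visceral and branchial motor neurons that is also used in heart, stood at 11.2, 42.7 and 44.5 CPM in SAG GFP+ libraries. RA GFP+ libraries had 0.549, 0.605 and 0.628 CPM of Tbx20 and RA GFP- libraries 0.177, 0.914 and 0.305 CPM. Every SAG GFP+ library was above every RA library, and the RA groups overlapped near the lowest levels measured. The difference between SAG GFP+ and RA GFP+ cells was 5.78 on the log2 scale (SE 0.61, adjusted p = 6.05e-05), and 6.21 without replicate 1 (adjusted p = 5.02e-06). The difference from RA GFP- cells was 6.14 (SE 0.63, adjusted p = 3.67e-05), 6.58 without replicate 1 (adjusted p = 2.58e-06), and 7.08 (adjusted p = 0.0001) when RA GFP- replicate 2 was left out. RA GFP+ and RA GFP- cells differed in Tbx20 by 0.36 (SE 0.68, adjusted p = 0.772), which did not pass the test. Genes of heart and lateral plate mesoderm, 11 in the list, had summed CPM from 9.066 to 14.29 in SAG GFP+ libraries, 39.69 to 44.53 in RA GFP+ libraries and 9.783 to 19.98 in RA GFP- libraries. The sum was thus lower in SAG GFP+ than in RA GFP+ libraries and overlapped with that of RA GFP- libraries. Of the 11 genes, 9 were tested, with 0 higher and 6 lower in SAG GFP+ than in RA GFP+ cells, and 1 higher and 3 lower in SAG GFP+ than in RA GFP- cells. The higher one was Foxf1, a lateral plate factor, at 6.228 CPM in SAG GFP+ cells and 0.5103 CPM in RA GFP- cells (adjusted p = 3.99e-05). Of all tested genes, 9.78% were higher and 14.8% lower in SAG GFP+ than in RA GFP+ cells. The shares against RA GFP- cells were 12% and 16.5%. Gata4, a heart and endoderm factor, averaged 3.677 CPM in SAG GFP+ cells and 2.928 CPM in RA GFP- cells and was not called. The cardiac factor Tbx5 averaged 0.181 CPM and the cardiac troponin gene Tnnt2 0.0785 CPM in SAG GFP+ cells, and Osr1 was at 0 there. The part of such cells in the Tbx20 values was not tested.

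Chat encodes choline acetyltransferase, the enzyme that makes acetylcholine, and Slc18a3 the vesicular transporter that packages it. Chat had 13, 116 and 97 counts in SAG GFP+ libraries, 0, 0 and 4 counts in RA GFP+ libraries, and 1, 1 and 13 counts in RA GFP- libraries. In CPM these are 0.530, 4.35 and 3.78 in SAG GFP+ libraries, 0, 0 and 0.140 in RA GFP+ libraries, and 0.0353, 0.0381 and 0.495 in RA GFP- libraries. The SAG GFP+ libraries were above all RA libraries, though replicate 1 was only just above RA GFP- replicate 3. Chat was higher in SAG GFP+ than in RA GFP+ cells by a log2 fold change of 5.80 (SE 1.23, adjusted p = 0.00538), and by 6.31 without replicate 1 (adjusted p = 0.00142). All RA GFP+ counts of Chat are in replicate 3, and the fitted value was 9.27 without that library (adjusted p = 0.00844). Against RA GFP- cells it was higher by 3.91 (SE 1.04, adjusted p = 0.0157), by 4.43 without replicate 1 (adjusted p = 0.00374), and by 6.13 without RA GFP- replicate 3 (adjusted p = 0.00696). The call against RA GFP- cells ended when SAG GFP+ replicate 2 was left out (adjusted p = 0.0572), and likewise for RA GFP- replicates 1 (0.06) and 2 (0.0587). Chat passed the filter on low counts only through the SAG GFP+ group, so its calls in that direction are in part set by the filter. Between the sorts under RA its difference was -1.88 (SE 1.44, adjusted p = 0.431), and it was 0.34 without RA GFP- replicate 3.

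Slc18a3 stood at 3.38, 14.4 and 10.4 CPM in SAG GFP+ libraries, 0.784, 1.58 and 0.453 CPM in RA GFP+ libraries, and 2.47, 1.45 and 0.685 CPM in RA GFP- libraries. All SAG GFP+ libraries lay above all RA libraries, and the RA groups overlapped. It was higher in SAG GFP+ than in RA GFP+ cells by a log2 fold change of 3.31 (SE 0.63, adjusted p = 0.00293), by 3.73 without replicate 1 (adjusted p = 0.000603), and by 3.92 without RA GFP+ replicate 2 (adjusted p = 0.00468). Against RA GFP- cells the difference was 2.60 (SE 0.61, adjusted p = 0.00803), and 3.02 without replicate 1 (adjusted p = 0.00153). In RA GFP+ against RA GFP- cells it differed by -0.70 (SE 0.62, adjusted p = 0.502), which did not pass the test. Chat and Slc18a3 thus differed in the same direction in SAG GFP+ cells from 1 shared locus. Gm2990, an antisense gene inside the body of Chat that shares no exon base with it and was chosen after its values were seen, averaged 1.309 CPM in SAG GFP+ cells, 0.167 CPM in RA GFP+ cells and 0.247 CPM in RA GFP- cells (log2 fold change against RA GFP+ cells 2.94, adjusted p = 0.00622).

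**Figure D2:**
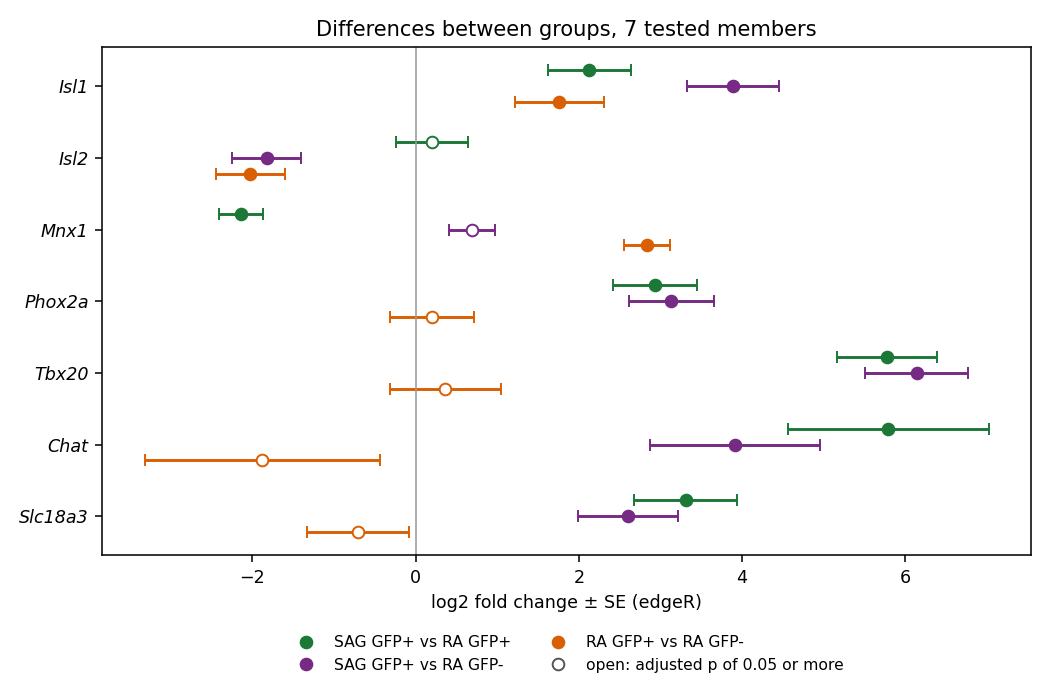
Log2 fold change ± SE (horizontal axis, edgeR fit of 9 libraries) of the 7 tested motor neuron genes in the comparisons SAG GFP+ vs RA GFP+, SAG GFP+ vs RA GFP- and RA GFP+ vs RA GFP-; open points have an adjusted p of 0.05 or more. Isl1, Phox2a, Tbx20, Chat and Slc18a3 lie to the right of 0 in both SAG comparisons, Mnx1 has opposite signs in SAG GFP+ vs RA GFP+ and RA GFP+ vs RA GFP-, and Isl2 is lower in both comparisons with RA GFP-.

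Of the 9 genes, 7 passed the filter on low counts. The 9 were chosen with earlier results of these data known. Shares of all genes are therefore set beside their calls for scale only and do not test the choice. In SAG GFP+ against RA GFP+ cells, which differ in medium within the same sort, 5 of the 9 were higher, 1 was lower, 1 was not called and 2 were not tested, while 24.5% of all 16772 tested genes were called, 9.78% higher and 14.8% lower. The lower gene was Mnx1 and the gene not called Isl2. Sample titles name SAG for the former medium and RA for the latter, so presence of SAG and lack of RA cannot be told apart here. In SAG GFP+ against RA GFP- cells, which differ in sort and medium at once so that these cannot be told apart, 5 were higher, 1 was lower and 1 was not called, against 28.5% of all tested genes called, 12% higher and 16.5% lower. There the lower gene was Isl2 and the gene not called Mnx1. Between the sorts under RA, Isl1 and Mnx1 were higher in RA GFP+ cells, Isl2 was lower and 4 were not called, against 16.9% of all tested genes called, 8.49% higher and 8.43% lower. Without SAG GFP+ replicate 1 the shares of all genes were 28.6%, 33.8% and 19.3% in the order of comparisons above, and the calls of the 7 genes were as with it. The groups did not overlap for 5 of the 9 genes upward and 1 downward in the first comparison (19.8% and 23.1% of all tested genes), for 6 and 2 in the second (19% and 22.1%) and for 2 and 2 in the third (18.3% and 18.1%). Lhx3, which was too low to test, is in these counts in each comparison, while the shares cover tested genes only. Same-numbered RA libraries varied together, and with the replicate number as a block in the 6 RA libraries 32.2% of genes were called, while the same 3 genes were (Isl1 adjusted p = 0.00181, Isl2 0.00345 and Mnx1 8.29e-06). The comparisons share libraries, so their values are set side by side and are not independent. The median log2 fold change of the 7 tested genes was 2.93, 3.13 and 0.20 in the order of comparisons above, and that of all tested genes -0.02, -0.01 and -0.02.

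Levels of different genes were set against each other per exon length, in RPKM (CPM per kilobase of exon). In SAG GFP+ cells the mean order was Phox2a at 7.58 RPKM, Slc18a3 at 3.89, Isl1 at 3.68, Tbx20 at 2.74, Mnx1 at 0.973, Chat at 0.613, Isl2 at 0.264, Lhx4 at 0.149 and Lhx3 at 0.0422 RPKM. Every gene in this order overlapped with its neighbour across the 3 libraries, and most neighbours changed places from library to library. Phox2a was still the highest within each SAG GFP+ library, at 2.422, 9.241 and 11.08 RPKM, and Isl2 stood above Lhx4 in each. The rest of the order of neighbours is not settled. In RA GFP+ cells Mnx1 led at 4.29 RPKM and did not overlap with the next, Phox2a at 0.993 RPKM, after which came Isl1 at 0.841, Slc18a3 at 0.389 and Isl2 at 0.229 RPKM. Tbx20, Lhx4, Chat and Lhx3 followed at 0.0495 RPKM or less, with a gap between Isl2 and Tbx20. In RA GFP- cells Isl2 at 0.946, Phox2a at 0.863, Slc18a3 at 0.636 and Mnx1 at 0.602 RPKM overlapped along the order. A gap separated Mnx1 from Isl1 at 0.247 RPKM, and another separated Isl1 from Lhx3 at 0.129 RPKM. The gene with the most RNA per exon length was therefore a different one in each group, although Isl2 and Phox2a overlapped at the top in RA GFP- cells.

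**Figure D3:**
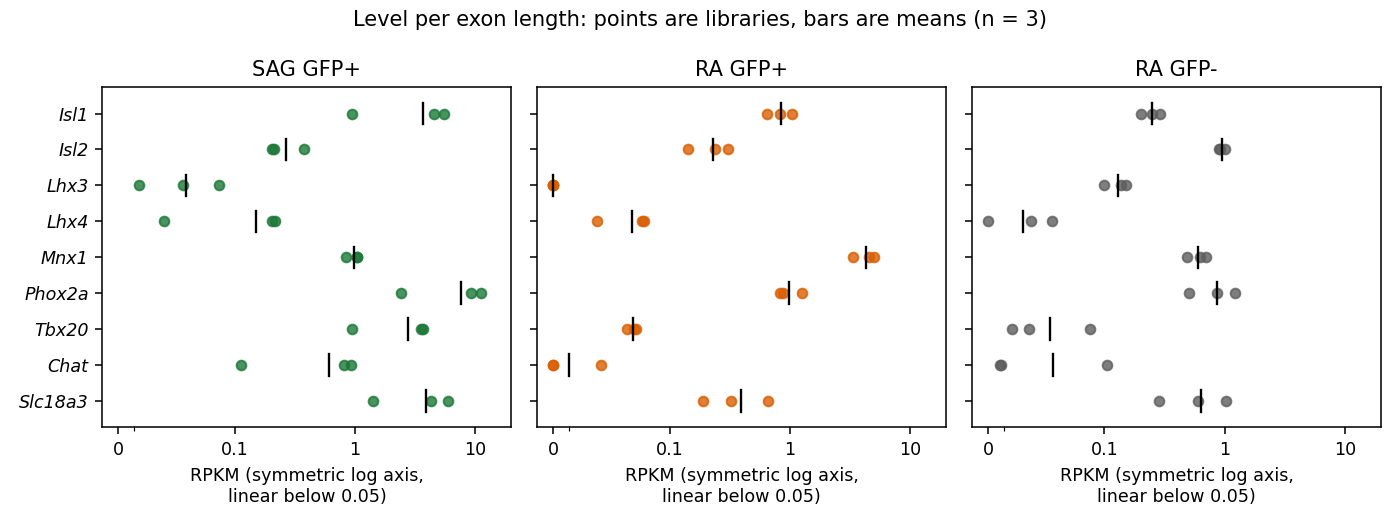
RPKM (horizontal axis, symmetric log, linear near 0) of the 9 motor neuron genes in the SAG GFP+, RA GFP+ and RA GFP- libraries; points are libraries and vertical bars means of 3. Phox2a leads at 7.58 RPKM in SAG GFP+, Mnx1 at 4.29 RPKM in RA GFP+, and Isl2 at 0.946 RPKM in RA GFP-.

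The spread within the SAG GFP+ group had a pattern of its own. For Isl1, replicates 2 and 3 were 4.87 and 5.91 times replicate 1. The ratios were 7.59 and 7.17 for Lhx4, 3.82 and 4.57 for Phox2a, 8.21 and 7.13 for Chat, 4.24 and 3.07 for Slc18a3, and 3.80 and 3.96 for Tbx20. Mnx1 moved little, at 0.823 and 1.01 times replicate 1, and Isl2 stood at 1.84 and 1.04 times. So the genes that were higher in SAG GFP+ cells were also those with the low replicate 1. In the list of 8 motor neuron progenitor genes, none had a step of 2-fold or more in both replicates, while 6 of 15 pan-neuronal genes did. What sets replicate 1 apart was not tested.

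Progenitor genes upstream of the 9 genes had their own order across the groups. Nkx2-2, the factor of progenitors that give visceral motor neurons, stood at 35.5, 39.5 and 51.5 CPM in SAG GFP+ libraries, and averaged 2.44 ± 0.806 CPM in RA GFP+ libraries and 0.0861 ± 0.0418 CPM in RA GFP- libraries. Its groups did not overlap, in the same order as those of Nkx6-1, a ventral factor needed for somatic motor neurons. Nkx6-1 averaged 385.5 ± 70.5 CPM in SAG GFP+ cells, 62.0 ± 3.24 CPM in RA GFP+ cells and 4.24 ± 0.436 CPM in RA GFP- cells (n = 3 each). Olig2, which marks somatic motor neuron progenitors, stood at 21.7, 10.9 and 7.20 CPM in SAG GFP+ libraries and 1.14, 3.50 and 9.73 CPM in RA GFP+ libraries, which overlapped (log2 fold change 1.46, adjusted p = 0.123). Olig2 was thus highest in SAG GFP+ replicate 1, where Isl1, Phox2a, Chat and Tbx20 were lowest in that group. Of 8 progenitor genes, 4 were higher and 1 lower in SAG GFP+ than in RA GFP+ cells, and 4 higher and 2 lower in RA GFP+ than in RA GFP- cells. The lower ones were Pax6 in both comparisons and Neurog2 in the second, and both are also used outside motor neuron progenitors. SAG GFP+ cells had 6 higher and 2 lower than RA GFP- cells. Shares of all tested genes called were 24.5%, 16.9% and 28.5% in these comparisons, in the order named. The call of Pax6 between SAG GFP+ and RA GFP+ cells ended when any library but SAG GFP+ replicate 1 or RA GFP+ replicate 1 was left out. Without SAG GFP+ replicate 1 the difference of Olig2 between SAG GFP+ and RA GFP+ cells was 0.93 (adjusted p = 0.313), and Olig2 was called higher in RA GFP+ than in RA GFP- cells (adjusted p = 0.0468), which made 5 higher there.

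Other genes of branchial and visceral motor neurons did not move as one. Hoxb1, the Hox gene of the hindbrain segment that makes facial motor neurons, had 27.3, 95.8 and 89.8 CPM in SAG GFP+ libraries and 4.04, 12.3 and 22.6 CPM in RA GFP+ libraries, a log2 difference of 2.45 (SE 0.57, adjusted p = 0.00902), and 2.85 without replicate 1 (adjusted p = 0.00197). Like most of the 9 genes, it was lowest in replicate 1 of the SAG GFP+ group. Nkx2-9, a relative of Nkx2-2 in ventral progenitors, had 240.9, 217.4 and 189.5 CPM in SAG GFP+ libraries, 189.2, 133.2 and 75.65 CPM in RA GFP+ libraries and 11.51, 8.801 and 3.845 CPM in RA GFP- libraries. Both GFP+ groups lay above the RA GFP- group for Nkx2-9, with log2 fold changes of 4.74 for SAG GFP+ (adjusted p = 1.18e-05, and 4.68 without replicate 1) and 4.04 for RA GFP+ cells (adjusted p = 6.53e-05). Of the 9 genes in this list, 3 were higher (Hoxb1, Nkx2-2 and Rgs4) and 4 lower in SAG GFP+ than in RA GFP+ cells. The lower ones were Gata3, Tbx2, Tbx3 and Nos1, which have uses outside motor neurons. Tbx3 averaged 0.766 CPM in SAG GFP+ cells, against 20.2 CPM in RA GFP+ cells (log2 fold change -4.71, adjusted p = 4.9e-05, and -4.31 without SAG GFP+ replicate 1). SAG GFP+ cells had 3 of the list higher than RA GFP- cells (Hoxb1, Nkx2-2 and Nkx2-9) and 2 lower (Tbx3 and Nos1), and 4 and 3 without SAG GFP+ replicate 1. Between the sorts under RA, 3 were higher (Nkx2-2, Nkx2-9 and Gata3) and 0 lower, and 4 and 1 without SAG GFP+ replicate 1. There was also 1 lower without RA GFP+ replicate 2 or SAG GFP+ replicate 3. In the same order of comparisons, 24.5%, 28.5% and 16.9% of all tested genes were called.

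LIM complex partners were mixed. Ldb1, the adaptor that joins Isl1 to Lhx3, averaged 229.9 ± 10.1 CPM in SAG GFP+ cells, 252.7 ± 26.8 CPM in RA GFP+ cells and 214.3 ± 14.4 CPM in RA GFP- cells, and was called in none of the 3 comparisons. Lmo4, which competes for Ldb1 in motor neurons, averaged 79.1 ± 9.49 CPM in SAG GFP+ cells, 44.5 ± 5.13 CPM in RA GFP+ cells and 30.3 ± 4.77 CPM in RA GFP- cells. Lmo4 was called in all 3 comparisons, with adjusted p = 0.0025 between SAG GFP+ and RA GFP+ cells. Of the 7 partners, 2 were higher (Lmo1 and Lmo4) and 1 lower (Lmo2) in SAG GFP+ than in RA GFP+ cells, and 2 higher (Lmo2 and Lmo4) and 2 lower (Lmo1 and Lhx5) in RA GFP+ than in RA GFP- cells. SAG GFP+ against RA GFP- cells gave 1 higher (Lmo4) and 1 lower (Lhx5), and 1 and 2 without SAG GFP+ replicate 1. Of all tested genes, 24.5%, 16.9% and 28.5% were called in these comparisons in turn. Between the sorts under RA the 2 higher became 1 when any single RA library other than RA GFP- replicate 1 was left out. The 2 lower became 1 without RA GFP+ replicate 2 or 3, and 3 without SAG GFP+ replicate 1 or 3. The 1 lower in SAG GFP+ than in RA GFP+ cells became 2 without RA GFP+ replicate 1.

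Genes of motor neuron columns and pools, which subdivide motor neurons by target, were also mixed. Of 14 genes, 6 were higher and 2 lower in SAG GFP+ than in RA GFP+ cells, and 2 were higher and 5 lower in RA GFP+ than in RA GFP- cells. SAG GFP+ against RA GFP- cells gave 4 higher and 3 lower. Without SAG GFP+ replicate 1 these counts were 5 and 2 against RA GFP+ cells, and 5 and 2 against RA GFP- cells. The 3 lower ones rest on single libraries, with 0 left without RA GFP- replicate 2 or SAG GFP+ replicate 2, and 1 without replicate 3 of either group. The 2 lower than in RA GFP+ cells became 1 without RA GFP+ replicate 3 or SAG GFP+ replicate 2. For scale, 24.5% of all tested genes were called in SAG GFP+ against RA GFP+ cells and 28.5% against RA GFP- cells. The share between the sorts under RA was 16.9%. Pou3f1, a marker of some motor pools that is used widely in neural progenitors, averaged 75.3 ± 5.35 CPM in SAG GFP+ cells, 5.30 ± 0.776 CPM in RA GFP+ cells and 14.4 ± 5.96 CPM in RA GFP- cells. Foxp1, the factor of limb-level and preganglionic columns, averaged 48.5 CPM in SAG GFP+ cells, 54.7 CPM in RA GFP+ cells and 48.8 CPM in RA GFP- cells and was called in no comparison. Aldh1a2, the RA-making enzyme of limb-level motor neurons, averaged 0.652 CPM in SAG GFP+ cells, 0.493 CPM in RA GFP+ cells and 1.92 CPM in RA GFP- cells, and was not called either, but was lower in SAG GFP+ than in RA GFP- cells without SAG GFP+ replicate 1 (adjusted p = 0.0204).

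Of the other 12 genes of cholinergic and motor neuron function, 9 were tested. Slc5a7, the choline transporter that works with Chat and Slc18a3, was too low to test, at 1.26, 0.450 and 0.234 CPM in SAG GFP+ libraries, 0.118, 0.101 and 0 CPM in RA GFP+ libraries and 0.247, 0.0762 and 0.0761 CPM in RA GFP- libraries. Its SAG GFP+ replicate 1 was the highest library, unlike Chat and Slc18a3. Ache, which breaks down acetylcholine, was also too low to test. In SAG GFP+ against RA GFP+ cells, 3 of the list were higher (Bche, Calca and Slit3) and 3 lower (Prph, Agrn and Mmp9). Against RA GFP- cells 4 were higher and 2 lower in SAG GFP+ cells, and between the sorts under RA 2 were higher (Agrn and Slit3) and 0 lower, or 1 lower without RA GFP- replicate 2. Without SAG GFP+ replicate 1, 10 were tested, and the higher ones were 4 in SAG GFP+ against RA GFP+ cells and 3 in RA GFP+ against RA GFP- cells. With all 9 libraries, 24.5% of all tested genes were called in SAG GFP+ against RA GFP+ cells and 28.5% against RA GFP- cells. Between the sorts under RA the share was 16.9%. Calca, a peptide gene of motor and sensory neurons, averaged 28.5 ± 1.34 CPM in SAG GFP+ cells and 0.852 ± 0.155 CPM in RA GFP+ cells (log2 fold change 5.06, adjusted p = 6.39e-07, and 5.04 without SAG GFP+ replicate 1). Prph, an intermediate filament gene of neurons with peripheral axons, averaged 1.39 ± 0.245 CPM in SAG GFP+ cells and 6.96 ± 1.31 CPM in RA GFP+ cells, and was lower (log2 fold change -2.32, adjusted p = 9.74e-05, and -2.23 without SAG GFP+ replicate 1). Mature motor neuron genes thus did not follow Chat and Slc18a3 as a group.

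Pan-neuronal genes had another order than most of the 9. Of 15 such genes, 12 were higher and 0 lower in SAG GFP+ than in RA GFP+ cells, while 0 were higher and 15 lower in RA GFP+ than in RA GFP- cells. Their summed CPM were 504.5, 679 and 783.3 in SAG GFP+ libraries, from 116 to 136.6 in RA GFP+ libraries, and from 492.4 to 637.7 in RA GFP- libraries. Isl1 and Mnx1 were higher in RA GFP+ cells, where this sum was lowest. Phox2a, Tbx20, Chat and Slc18a3 were low in RA GFP- cells, where it was close to that of SAG GFP+ cells. Isl2 was called lower in RA GFP+ than in RA GFP- cells, as the pan-neuronal genes were, while Chat and Slc18a3 had negative differences there that missed the threshold. In SAG GFP+ against RA GFP- cells, 4 of the 15 were higher and 3 lower, and 7 and 3 without SAG GFP+ replicate 1. All tested genes had 28.5% called in that comparison, 24.5% in SAG GFP+ against RA GFP+ cells and 16.9% between the sorts under RA. The median log2 fold change in SAG GFP+ against RA GFP+ cells was 2.39 for the pan-neuronal list, 1.72 for progenitors, 0.09 for branchial and visceral genes, 0.56 for columns and pools, 0.28 for cholinergic function and 0.26 for LIM partners, against -0.02 for all tested genes. In RA GFP+ against RA GFP- cells these medians were -2.19, 1.84, 1.26, -0.62, 0.12 and 0.24 in the same order, against -0.02. Stmn2, a gene of growing axons, averaged 159.1 ± 46.2 CPM in SAG GFP+ cells, 7.07 ± 1.04 CPM in RA GFP+ cells and 28.0 ± 4.67 CPM in RA GFP- cells.

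**Figure D4:**
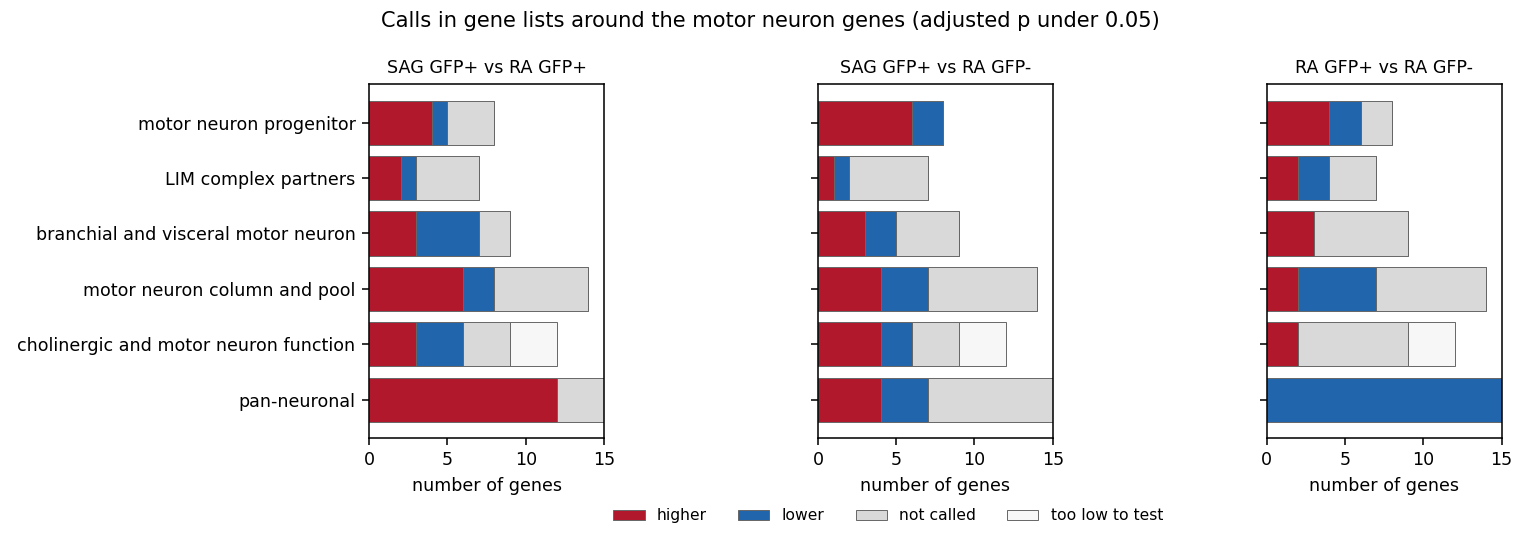
Number of genes (horizontal axis) called higher or lower, not called, or too low to test in 6 gene lists, for SAG GFP+ vs RA GFP+, SAG GFP+ vs RA GFP- and RA GFP+ vs RA GFP-. All 15 pan-neuronal genes are lower in RA GFP+ than in RA GFP-, and 12 of them are higher in SAG GFP+ than in RA GFP+, while the motor neuron lists hold genes of both directions.

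Markers of other cell types that use some of the 9 genes were summed in each library. Genes of V2 interneurons, which use Lhx3 and Lhx4, summed to 8.147 to 16.31 CPM in SAG GFP+ libraries, 12.27 to 22.5 CPM in RA GFP+ libraries and 20.16 to 28.55 CPM in RA GFP- libraries, and Vsx1, a V2 gene of the list, averaged 0.0260, 0.0639 and 0.0127 CPM in these groups in turn. Genes of sensory neurons, which use Isl1 and Isl2, summed to 27.78 to 43.87 CPM in SAG GFP+ libraries, 87.71 to 92.78 CPM in RA GFP+ libraries and 118 to 165.6 CPM in RA GFP- libraries, and Tlx3 was at 0 in SAG GFP+ libraries. Sensory sums did not overlap between the groups. V2 sums of RA GFP+ libraries overlapped with those of both other groups, and the members of that list differed in direction, with Bhlhe22 higher (adjusted p = 0.0136) and Gata3 lower in SAG GFP+ than in RA GFP+ cells, and Gata3 higher in RA GFP+ than in RA GFP- cells (adjusted p = 0.00338). Pluripotency genes summed to 60.5 to 224.7 CPM in SAG GFP+ libraries, 35.08 to 47.36 CPM in RA GFP+ libraries and 587.9 to 959.6 CPM in RA GFP- libraries. Members of that list differed in direction, with Pou5f1, Nanog and Tdgf1 higher and Zfp42, Esrrb and Klf4 lower in SAG GFP+ than in RA GFP+ cells. The call of Tdgf1 was lost without SAG GFP+ replicate 1 (adjusted p = 0.112). Pituitary and oral ectoderm genes, 7 in all, summed to 6.893 to 10.9 CPM in SAG GFP+ libraries, 21.27 to 48.64 CPM in RA GFP+ libraries and 10.09 to 20.26 CPM in RA GFP- libraries, with Pou1f1 and Cga at 0 in every group. Floor plate genes, 10 in all, summed to 893.4 to 1219 CPM in SAG GFP+ libraries, 808.9 to 1256 CPM in RA GFP+ libraries and 221.4 to 299.2 CPM in RA GFP- libraries. The part of these cells in the values of the 9 genes was not tested.

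The genes whose pattern over the 9 libraries was most like each member were found by Pearson r of log2 CPM among 13911 genes with a mean of at least 1 CPM. These r are descriptions: the 9 libraries form 3 groups, which set most of each pattern. For Isl1 they were Itfg1 (r = 0.995), Peli1 and Rab6a, and for Tbx20 Zfp280c (r = 0.989), Atxn7l1 and Ube2d1. For Mnx1 they were the basement membrane collagen genes Col4a2 (r = 0.994) and Col4a1 (r = 0.988), with Tpcn1 between them. Col4a2 averaged 67.97 CPM in SAG GFP+ cells, 297.7 CPM in RA GFP+ cells and 50.63 CPM in RA GFP- cells, the same order as Mnx1. Phox2a was nearest to Ccdc173 (r = 0.989), Coro2b and AI987944, Chat to Ccdc66, Gphn and Otub2 (r = 0.978 to 0.983), Slc18a3 to Eif3s6-ps2 (r = 0.949), Nop14 and Necab1, and Isl2 to Vsig10l (r = 0.975), Tcl1 and Dusp1. Among the members themselves, r between any 2 of Isl1, Phox2a, Tbx20, Chat and Slc18a3 ran from 0.709 for Isl1 with Chat to 0.949 for Phox2a with Chat. Mnx1 had r = 0.170 with Isl1 and -0.691 with Isl2.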

How the data were processed

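RNA was measured in 9 libraries of sorted mouse organoid cells. Per the labels' protocols they were made from poly(A) RNA with a kit that keeps the strand. What the authors deposited are raw counts per Ensembl gene. Trim Galore 0.5.0, Bowtie2 2.3.4.1, Subread 1.6.2 with featureCounts, and the build GRCm38 are named in the submitters' processing notes. Which strand setting and annotation release were used is not given in the sources used here. SAG is named in the sample titles alone, and replicates are called biological in the labels.

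The 9 genes, the gene lists and the tests were chosen with earlier results of these data known. One edgeR 4.0.16 model (R 4.3.3, limma 3.58.1) held all 9 libraries and 3 group means. It used TMM scaling, 16772 genes kept by filterByExpr (minimum count 10), quasi-likelihood F tests, and Benjamini-Hochberg adjustment over all of these genes. A gene is called, and "higher" or "lower" used of a test, at an adjusted p under 0.05. The SE is the absolute log2 fold change over the square root of F. Every adjusted p in the text is from edgeR. Log2 CPM for correlations used a prior count of 2. DESeq2 1.42.0, other scalings and filters, the replicate block and leaving out each library were alternatives. The scripts were tested on simulated data. Besides the 9 genes and Foxa2, the rule names in each list the 2 called genes with the smallest adjusted p, and for each member with at least 1 CPM the 3 genes nearest in pattern. Further list genes were chosen after their values were seen. Some genes of the lists are not reported here and were left out of their counts and sums.

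The numbers pair the RA libraries: deviations from group means correlated across genes between same-numbered RA GFP+ and RA GFP- libraries (r = 0.273, 0.307 and 0.347). SAG GFP+ libraries were not paired with RA libraries by this check (r = 0.111, -0.082 and 0.182 with RA GFP+, and 0.175, -0.022 and 0.242 with RA GFP-).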

Additional observations from a re-analysis of the deposited data

How the results depend on the processing

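The 21 log2 fold changes of the 7 tested genes were recomputed under up to 17 alternatives, 355 values in all. Of these, 338 kept their direction and side of the threshold, 11 lost a call and 6 changed sign, each of the 6 for a gene that was not called. Leaving out single libraries, RA GFP+ against RA GFP- cells gave -0.066 (RA GFP- replicate 2 out) and -0.010 (RA GFP+ replicate 3 out) for Phox2a in a range up to 0.529. It gave 0.336 (RA GFP- replicate 3 out) for Chat in a range down to -5.354, and -0.028 (RA GFP- replicate 1 out) for Tbx20 in a range up to 1.301. SAG GFP+ against RA GFP+ cells gave -0.042 (RA GFP+ replicate 1 out) and -0.120 (SAG GFP+ replicate 2 out) for Isl2 in a range up to 0.461. The lost calls are those of Isl1 between the sorts under RA, at an adjusted p from 0.0502 to 0.121, and of Chat between SAG GFP+ and RA GFP- cells. Over all alternatives the adjusted p of that Isl1 difference ran from 0.000135 to 0.121. Of the 9 genes, leaving out single libraries gave 6 to 7 calls in SAG GFP+ against RA GFP+, 5 to 7 in SAG GFP+ against RA GFP-, and 2 to 4 in RA GFP+ against RA GFP- cells. Over all genes those ranges were 2747 to 4972, 3365 to 5876 and 1783 to 3368 calls, the 1783 without RA GFP+ replicate 2. Between the sorts under RA, a fit of the 6 RA libraries alone called 5240 genes with the replicate block and 3010 with no block, against 2838 in the fit of 9 libraries. Block fits changed no call of the tested motor neuron genes. Chat was not tested in the fit of the 6 RA libraries. Of 1339 values for the other named genes, 1290 kept their call, 45 lost it, 4 gained one and 0 changed sign. The causes were not tested. Lhx3 and Lhx4, at 42 and 101 counts over all libraries, are limited by depth.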
